A study of Mus musculus with 36 samples.

Results

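Voltage-gated sodium and calcium channel genes and the potassium channel genes were described in 3 parts of the mouse olfactory system: the main olfactory epithelium (MOE), the vomeronasal organ (VNO) and the olfactory bulb (OB). Members were the protein-coding genes whose symbol starts with Kcn, Cacna, Cacnb or Cacng, or with Scn followed by digits and a or b. This gave 134 genes of the 24748 genes in the MOE tables and the 24739 in the VNO and OB tables. The 4 non-coding RNAs Kcnd3os, Kcnmb4os1, Kcnmb4os2 and Kcnq1ot1 were left out.

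RNA was sequenced from C57BL/6 mice aged 6 months that had been housed with their own sex only or with both sexes. There were 36 libraries, 12 per tissue, in 4 groups of 3 libraries. SF were females and SM males from sex-separated cages, and CF were females and CM males from sex-combined cages. The labels name no mutation and no drug for any group. Mice were weaned at 3 weeks into cages of 4, and litters of the mixed cages were taken away soon after birth. Each library held RNA pooled in equal quantities from several mice. Per the study, all 3 tissues were taken from each mouse, so libraries of different tissues share animals. The main fit between tissues nonetheless treats the 36 libraries as independent. The series text gives 2 mice per pool and the study's methods another number, so a replicate here is a pool and its spread is narrower than that between mice. The values are FPKM, fragments scaled to transcript length and to the mapped fragments of the library, and so are levels per length, summed over the RefSeq transcripts of a gene. Each library has its own table, normalized separately from the rest, and this holds for every level compared across tissues.

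Ion channels of these families open in response to membrane voltage, calcium or other signals and set how a neuron fires. The pore of a voltage-gated sodium channel is one large alpha subunit (the Scn genes ending in a), which beta subunits (those ending in b) accompany. Calcium channels pair an alpha1 pore with beta and alpha2delta subunits. Potassium channels are assembled from 4 pore subunits, or from paired subunits in the Kcnk family, and shape resting potential, spike repolarization and spike frequency. The olfactory sensory neurons of the MOE and the vomeronasal sensory neurons send axons to the OB, which holds mitral and tufted cells, many GABAergic interneurons and glia.

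The tissues carried their defining markers. Omp, the olfactory marker protein, had means of 983 FPKM (MOE), 101 (VNO) and 35.1 (OB). Trpc2, the vomeronasal transduction channel, was at 43.0 in VNO and 0.938 in MOE, and Gad1, which makes GABA, was at 180 in OB and 0.236 in MOE. The fragments behind the tables, estimated from the confidence limits that came with each FPKM, numbered 3016520 to 5902160 per MOE library, 3373400 to 6779890 per VNO library and 3592960 to 6437260 per OB library. By the study's alignment statistics every library held more aligned pairs than this, so these estimates are not the sequencing depth. MOE libraries SF2 and CM3 stood apart: their summed channel FPKM was 324 and 290, against 385 to 481 in the other MOE libraries. CM3 was the lowest of the 12 in 52 of the 129 members detected in MOE and SF2 in 27. By the study's alignment statistics, CM3 had the lowest share of aligned reads of all libraries, and VNO SF1 the next lowest. The part of alignment in the channel levels was not tested. SF2 held 22178 FPKM of the gland gene Obp1a, against 2679 to 5552 in the other MOE libraries. In bulk tissue, fewer cells of a type and less RNA per cell cannot be told apart.

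The channel genes were at their highest in the bulb. Their levels summed to 839 ± 55.1 FPKM in OB, 413 ± 55.2 in MOE and 217 ± 12.5 in VNO (SD, n = 12, as for every mean of a tissue). The 12 OB libraries ranged from 771 to 932 and the 12 VNO libraries from 190 to 232, and no library of one tissue reached the range of another. Of the 134 members, 25 had a mean of at least 10 FPKM in OB, 13 in MOE and 3 in VNO, and 18, 40 and 35 were under 0.1 in the same order. The potassium channel Kcnk16 was listed at 0 in all 36 libraries.

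Between tissues, 107 members passed the filter of a mean of at least 0.5 FPKM over the 36 libraries, which a member could pass through the tissue where it is high. Differences are log2 differences of FPKM + 0.5, which understate the change of low genes. A member was called at an adjusted p under 0.05 (limma, Benjamini-Hochberg over 14642 genes) and a log2 difference of at least 1. In OB against MOE, 64 members were higher and 18 lower, where 17.3% and 21.1% of all genes tested were. In OB against VNO, 65 were higher and 17 lower, against 19% and 20.2% of all genes. In MOE against VNO, 19 were higher and 13 lower, against 11.8% and 9.73%. The split of all genes depends on scaling here: 1733 were higher and 1425 lower in MOE against VNO as deposited, 1226 and 2124 under upper quartile scaling, and 1429 and 1767 under quantile normalization. In OB against VNO, 2783 and 2957 became 2110 and 3513 under upper quartile scaling. The median log2 difference of the members was 1.85 in OB against MOE, where that of all genes was -0.07, and 1.69 in OB against VNO, where it was 0.12. In MOE against VNO it was 0.01, and 0.15 over all genes. Near the limit on size in OB against MOE, Kcnh3 (1.004) and Cacna1d (1.01) were called and Kcnn4 (-0.997) was not. With Cacng2, Cacng3, Kcnk9 and Kcnq1, which were listed at 0 throughout a tissue, left out where that was so, the medians were 1.73, 1.69 and 0.02. With MOE SF2 and CM3 both left out, a choice made after seeing the data, the counts in OB against MOE were 62 and 18, and the other 4 counts were as given.

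**Figure D1:**
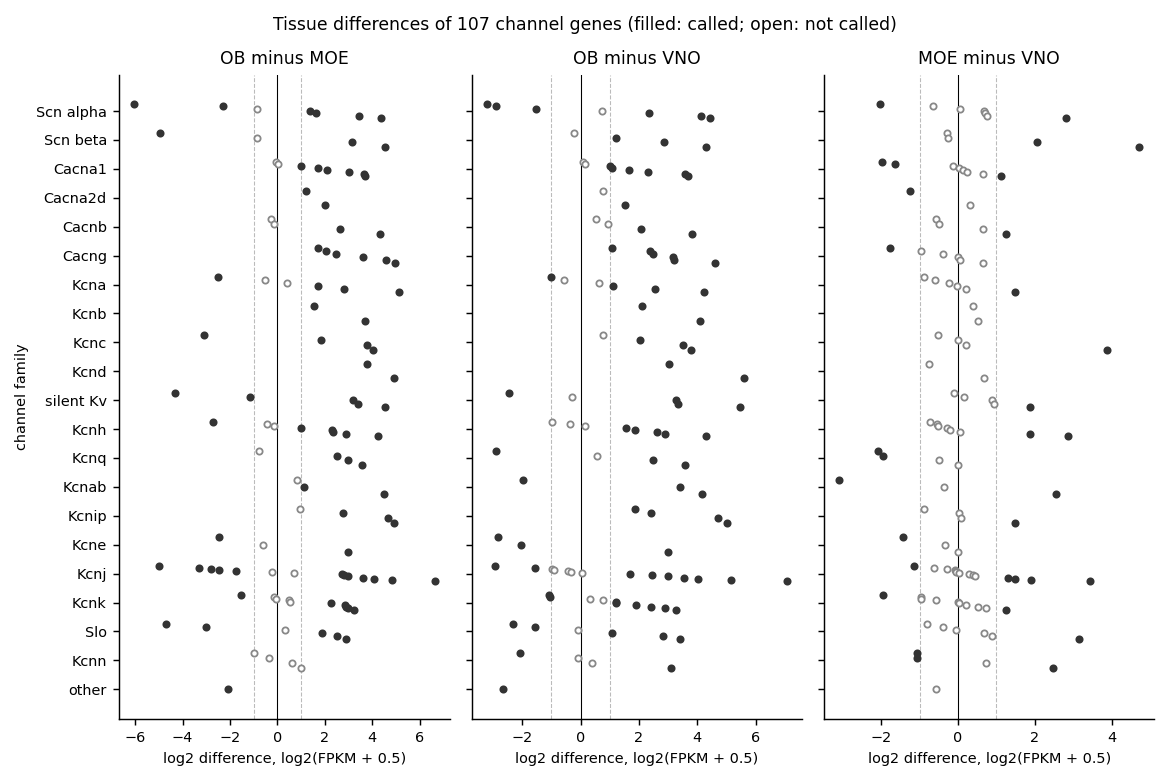
Log2 difference of FPKM + 0.5 (horizontal axis) of each of the 107 members tested, by channel family (vertical axis), in OB against MOE, OB against VNO and MOE against VNO, with filled points for called members. The points of both bulb comparisons lie mostly right of 0, with medians of 1.85 and 1.69, and those of MOE against VNO lie on both sides of 0.

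Without any fit, all 12 OB libraries lay above the other 24 for 64 members, which is 59.8% of the 107, against 21.5% of all genes. They lay below for 16 members, where 17.9% of all genes did so. All 12 MOE libraries were above the rest for 14 members (13.1%, against 8.65%) and below it for 22 (20.6%, against 7.06%). For VNO these counts were 4 above (3.74%, against 11.7%) and 14 below (13.1%, against 6.16%). Members among the 14 highest in MOE were Kcna5, Kcnc4, Kcng1, Kcnh4, Kcnj1, Kcnj2, Kcnj5, Kcnj13, Kcnmb3, Kcns3, Scn3b, Scn4b and Scn9a. The 4 highest in VNO were Kcnab1, Kcne4, Kcnk6 and Scn7a.

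Among the sodium channel pores, MOE was led by one gene and OB by another set. Scn9a, which encodes Nav1.7, ranged from 25.6 to 53.3 FPKM in MOE around a median of 47.0, and made up 80.5% of the summed alpha subunit level there. In VNO it ranged from 4.85 to 6.43 (median 5.87) and in OB from 0.119 to 0.303 (median 0.171). The 3 ranges do not overlap. MOE was 7.69-fold VNO, a log2 difference of 2.82 (SE 0.08, adjusted p = 1.02e-23), and OB was lower than MOE by a log2 difference of -6.03 (SE 0.08, adjusted p = 9.47e-33).

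OB had a different set of sodium channel pores. Scn2a (Nav1.2) lay between 13.3 and 19.4 FPKM in OB, with a median of 16.7, and did not exceed 1.37 in MOE or 0.578 in VNO. Scn1a (Nav1.1) ranged from 9.27 to 12.3 in OB and was at most 0.0862 in the other 24 libraries. Scn8a (Nav1.6) was at 5.22 ± 0.42 in OB, 1.33 ± 0.22 in MOE and 0.638 ± 0.097 in VNO. All 3 were called higher in OB in both comparisons, with log2 differences between 1.65 (Scn8a, OB against MOE) and 4.42 (Scn1a, OB against VNO). Scn3a (Nav1.3) was the most even, at 3.01 ± 0.60 in MOE, 4.92 ± 0.57 in VNO and 8.51 ± 0.91 in OB. VNO was led by Scn7a, which encodes the sodium sensor Nax: it ranged from 5.50 to 8.37 there, and ranged from 1.11 to 1.66 in MOE and from 0.379 to 0.696 in OB. VNO was 13.1-fold OB (log2 difference of OB against VNO -2.89, SE 0.06, adjusted p = 1.10e-27). The summed Schwann cell markers had medians of 156 FPKM in OB, 14.8 in VNO and 7.71 in MOE. The OB sum was nearly all Mbp (mean 151), which oligodendrocytes also express, while Pmp22 was at 8.32 in VNO, 3.46 in OB and 2.88 in MOE. Their part in the Scn7a level was not tested. Scn4a, the skeletal muscle pore, and the sensory ganglion pores Scn10a and Scn11a stayed at or below 0.06 FPKM in all 36 libraries.

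Scn1a, Scn2a, Scn3a, Scn7a and Scn9a lie next to each other on chr2:65295175-66622967 (mm9), so neighbours on the chromosome led different tissues: Scn9a MOE, Scn7a VNO, and Scn1a, Scn2a and Scn3a OB. The next pair of this kind was Scn2b and Scn4b on chr9:44925959-44962144. Scn2b, an auxiliary subunit bound to the pore by a disulfide bond, ranged from 14.1 to 18.4 FPKM in OB and was at most 0.417 elsewhere. Scn4b, the subunit known for the blocking particle of resurgent current, ranged from 19.2 to 34.2 in MOE and was at most 1.10 in VNO and 0.512 in OB. MOE was 48.9-fold VNO for Scn4b (log2 difference 4.72, SE 0.09, adjusted p = 3.23e-28), the top value among the 19 members called higher in MOE. The Scn4b locus overlaps no other gene in these tables, and at least 17 estimated fragments stood behind each of its values. Scn3b was at 22.5 ± 3.9 in MOE, 5.02 ± 0.62 in VNO and 12.2 ± 1.3 in OB.

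**Figure D2:**
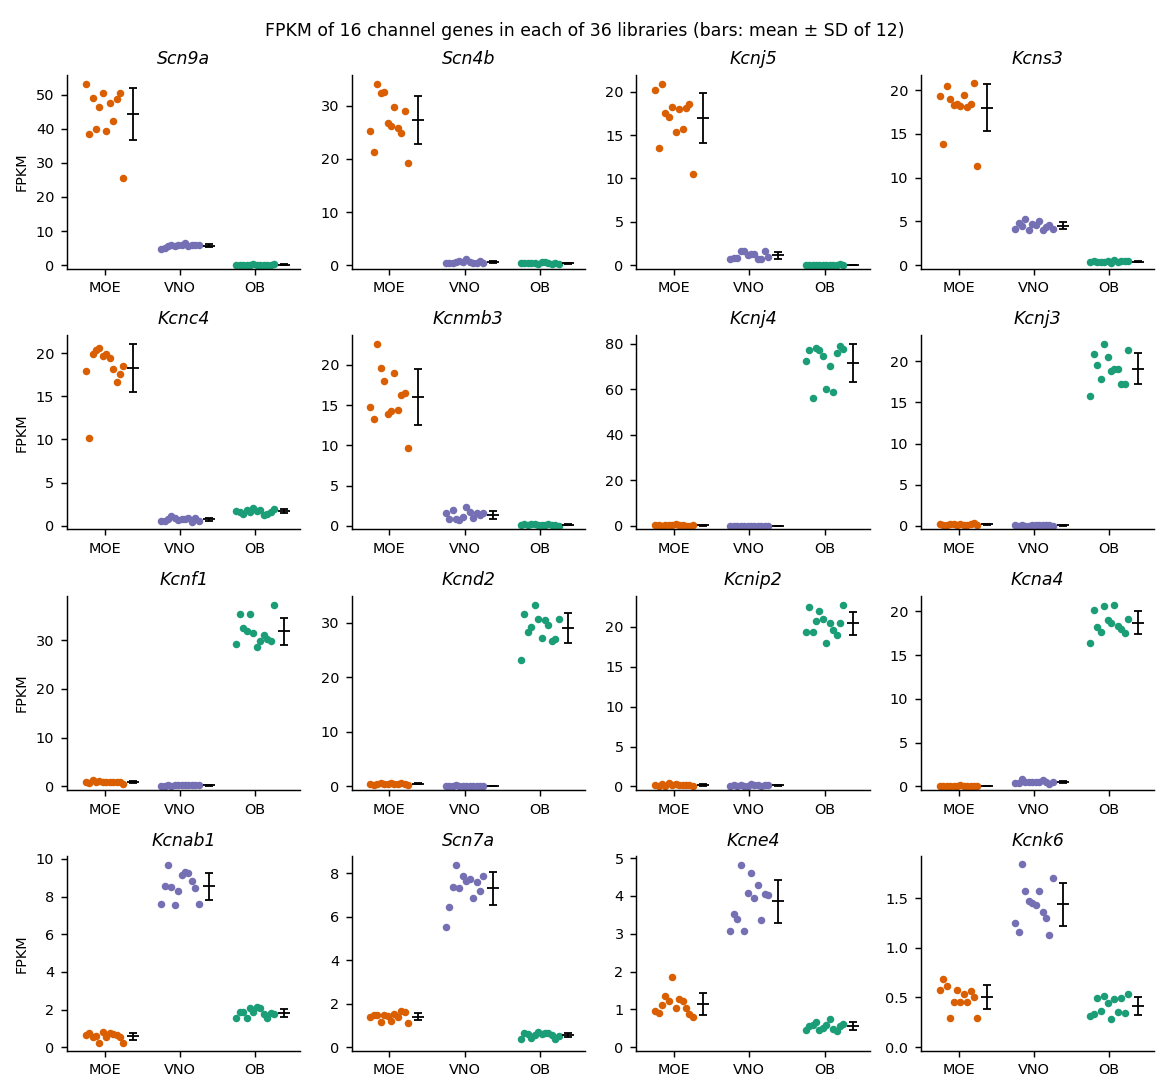
Levels in FPKM (vertical axis, linear, a scale for each gene) of 16 members in each of the 36 libraries, 12 per tissue, with the mean and SD of each tissue. Scn9a, Scn4b, Kcnj5, Kcns3, Kcnc4 and Kcnmb3 are highest in MOE, Kcnj4, Kcnj3, Kcnf1, Kcnd2, Kcnip2 and Kcna4 in OB, and Kcnab1, Scn7a, Kcne4 and Kcnk6 in VNO.

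Calcium channel pores also summed highest in the bulb, at 41.4 FPKM on average against 12.2 in MOE and 12.9 in VNO. The leading pore was Cacna1h in MOE, Cacna1g in VNO and Cacna1e in OB. Cacna1e (the R-type pore) ranged from 6.34 to 8.76 in OB and was at most 0.227 elsewhere. Cacna1i, a T-type pore, ranged from 5.12 to 6.81 in OB and was at most 0.0493 elsewhere. Cacna1a (P/Q-type) was at 3.71 ± 0.32 in OB, 0.489 ± 0.10 in MOE and 0.340 ± 0.064 in VNO. The L-type pore Cacna1c was at 6.59 ± 0.48 in OB, 3.00 ± 0.35 in VNO and 0.379 ± 0.052 in MOE, so VNO was 7.92-fold MOE. The summed smooth muscle and pericyte markers were 285 FPKM (median) in VNO, 139 in MOE and 16.2 in OB, though Rgs5, at a mean of 100 in MOE and 24.1 in VNO, ran against the other 5. Their part in this was not tested. Cacna1b (N-type) was nearly level, at 2.50 ± 0.44 in MOE, 2.24 ± 0.26 in VNO and 2.51 ± 0.17 in OB, and no contrast was called.

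Besides Cacna1c, the T-type pores Cacna1g and Cacna1h were called between MOE and VNO. Cacna1h ranged from 2.89 to 6.61 FPKM in MOE (median 5.30), from 1.81 to 2.61 in VNO and from 4.50 to 6.01 in OB. MOE and OB overlapped for it, and both were above VNO, by log2 differences of 1.13 and 1.08. Its locus overlaps that of Tpsg1. Cacna1g ran the other way between the epithelia, at 3.55 ± 0.43 in VNO against 0.808 ± 0.15 in MOE, with OB at 3.78 ± 0.45. Cacna1d, an L-type pore, was at 2.56 ± 0.36, 1.43 ± 0.17 and 5.63 ± 0.45 in MOE, VNO and OB. The retinal pore Cacna1f stayed at or below 0.0414 in all libraries, and the skeletal muscle pore Cacna1s was at most 0.0813 outside OB, where it was between 0.260 and 0.546.

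Auxiliary calcium channel subunits shape how the pores gate and reach the membrane. Cacnb4 ranged from 16.9 to 24.2 FPKM in OB and was at most 1.13 elsewhere, while Cacnb3 was abundant in all tissues, at 26.1 ± 4.2 in MOE, 10.7 ± 1.1 in VNO and 21.1 ± 1.7 in OB. Cacnb3 was the highest member of all in VNO. Cacna2d1, which helps bring the pore to the membrane, was at 8.68 ± 1.4, 6.78 ± 0.51 and 20.6 ± 2.2. The 8 Cacng genes include the regulators of AMPA receptor trafficking Cacng2, Cacng3, Cacng4 and Cacng8. The 6 tested were each called higher in OB in both comparisons, as were 17.3% (against MOE) and 19% (against VNO) of all genes. Cacng genes with a mean of at least 0.5 FPKM were 7 in OB, 2 in MOE and 2 in VNO. A Cacng gene could thus pass the filter through its OB level alone, which favours such calls. Cacng5 ranged from 14.6 to 17.2 in OB, from 1.06 to 1.58 in VNO and from 0 to 0.0616 in MOE. Cacng8 ranged from 8.97 to 15.0 in OB and was at most 0.121 elsewhere.

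The Kv4 pores Kcnd2 and Kcnd3, which carry A-type current, were called higher in OB against both epithelia, while the third Kv4 pore, Kcnd1, had a mean of 0.197 FPKM in OB. The A-type pore Kcnd2 (Kv4.2) ranged from 23.1 to 33.2 FPKM in OB, with a median of 29.4, and was at most 0.594 in MOE and 0.193 in VNO. Its log2 difference was 4.92 against MOE (SE 0.06, adjusted p = 1.57e-33) and 5.60 against VNO (SE 0.06, adjusted p = 6.41e-35). Kcnip1 and Kcnip2, calcium-binding KChIP proteins that join Kv4 pores, were at 14.9 ± 1.3 and 20.4 ± 1.5 in OB, and neither exceeded 0.382 in any MOE or VNO library. Of the related list, the other Kv4 partners Dpp6 and Dpp10 were at 26.0 and 39.3 on average in OB and at means of at most 0.405 and 0.176 in the epithelia. Kcnd3 (Kv4.3) was at 7.87 ± 0.81 in OB, 0.105 ± 0.047 in MOE and 0.534 ± 0.14 in VNO. Kcna4 (Kv1.4), a rapidly inactivating pore, ranged from 16.4 to 20.7 in OB, from 0.291 to 0.879 in VNO and from 0.0124 to 0.204 in MOE. Kcnc4, which also inactivates rapidly, was highest in MOE.

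Within the Shaker family, Kcna5 ran opposite to Kcna4. Kcna5 (Kv1.5) ranged from 11.6 to 18.2 FPKM in MOE, from 4.02 to 6.39 in VNO and from 1.85 to 3.07 in OB, without overlap. Kcna2 (Kv1.2) was at 6.79 ± 1.1, 5.72 ± 0.58 and 9.09 ± 0.87 in MOE, VNO and OB, and was not called. Kcna1 (Kv1.1) was at 1.14 ± 0.21, 1.98 ± 0.28 and 4.90 ± 0.57, and was called higher in OB against both. The Kvbeta subunits, which attach to Kv1 pores, split by tissue. Kcnab1 ranged from 7.55 to 9.66 in VNO, from 0.206 to 0.793 in MOE and from 1.52 to 2.15 in OB. VNO was 14.9-fold MOE (log2 difference of MOE against VNO -3.10, SE 0.08, adjusted p = 1.33e-24) and 4.69-fold OB. Kcnab2 ran the other way, at 14.5 ± 2.4 in MOE, 2.02 ± 0.32 in VNO and 26.0 ± 1.7 in OB. Kcnab3 ranged from 14.4 to 19.7 in OB and was at most 0.716 elsewhere.

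The Kcnc family, whose pores are known for fast spiking, was divided by member. Kcnc4 (Kv3.4) ranged from 10.2 to 20.5 FPKM in MOE (median 19.0), from 0.453 to 1.10 in VNO and from 1.30 to 2.02 in OB, and made up 98.0% of the family's sum in MOE. MOE was 23.6-fold VNO (log2 difference 3.88, SE 0.08, adjusted p = 8.65e-27) and 10.9-fold OB. Kcnc1 and Kcnc2 were at 7.09 ± 0.63 and 9.42 ± 0.73 in OB, and neither reached 0.5 in any library of the epithelia. The silent subunits, which do not form channels alone and modify Kv2 pores, were led by Kcns3 in both epithelia and by Kcnf1 in OB. Kcns3 ranged from 11.4 to 20.8 in MOE, from 4.02 to 5.25 in VNO and from 0.273 to 0.541 in OB. Kcnf1 ranged from 28.5 to 37.2 in OB, 35.8-fold MOE (0.553 to 1.28) and 141-fold VNO (0.153 to 0.319). The Kv2 pore Kcnb2 was at 10.5 ± 0.73 in OB, 0.340 ± 0.062 in MOE and 0.144 ± 0.054 in VNO.

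Among slower channels, the M-current pores Kcnq3 and Kcnq5 were each highest in OB. Kcnq5 was at 4.50 ± 0.45 in OB, 0.133 ± 0.036 in MOE and 0.390 ± 0.074 in VNO. Kcnq3 separated the epithelia, at 1.92 ± 0.33 in VNO and 0.127 ± 0.070 in MOE, with OB at 3.04 ± 0.28. Kcnq1, the pore of the cardiac slow current, was listed at 0 in 9 of 12 MOE libraries, 3 of 12 VNO libraries and all 12 OB libraries. Its other values were 3.49 to 4.79 in MOE and 5.85 to 8.30 in VNO. Its locus overlaps the antisense Kcnq1ot1, and zeros beside such levels may be failed estimates, so no mean is given, though it is 1 of the 13 lower calls in MOE against VNO and 1 of the 17 in OB against VNO. Its partners Kcne1 and Kcne2 did not exceed 0.179 in any library.

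Kcnh genes encode the eag, erg and elk pores. Kcnh4, an elk pore, ranged from 3.46 to 8.09 FPKM in MOE and was at most 0.635 elsewhere, whereas Kcnh3 was at 10.3 ± 2.5 in MOE, 2.38 ± 0.46 in VNO and 20.7 ± 2.2 in OB. Kcnh5, an eag pore, ranged from 8.87 to 11.2 in OB and was at most 0.0606 elsewhere. Kcnh2, the erg pore, was at 1.05 ± 0.25, 2.08 ± 0.34 and 7.14 ± 0.96 in MOE, VNO and OB.

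Inward rectifiers held the highest single level. Kcnj4 (Kir2.3) ranged from 56.2 to 79.1 FPKM in OB, with a median of 75.4, and was at most 0.689 in MOE and 0.0921 in VNO, where 5 of 12 libraries listed 0. Its log2 difference was 6.64 against MOE (SE 0.07, adjusted p = 5.90e-35) and 7.07 against VNO (SE 0.07, adjusted p = 1.09e-35). Kcnj2 (Kir2.1), of the same subfamily, ran the other way: 13.7 to 26.3 in MOE, 4.71 to 6.46 in VNO and 2.16 to 3.36 in OB. The G protein-gated subunits divided likewise. Kcnj5 (GIRK4) ranged from 10.5 to 20.9 in MOE, from 0.697 to 1.69 in VNO and from 0.00999 to 0.106 in OB, with MOE above VNO by a log2 difference of 3.44 (SE 0.10, adjusted p = 8.98e-24). Kcnj3 (GIRK1), Kcnj6 (GIRK2) and Kcnj9 (GIRK3) were at 19.1 ± 1.9, 8.13 ± 0.64 and 5.95 ± 0.65 in OB, and none exceeded 0.307 in the epithelia.

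Other inward rectifiers are known from epithelia and glia. Kcnj15 (Kir4.2) ranged from 3.57 to 5.80 FPKM in MOE and from 3.06 to 3.84 in VNO, and was at most 0.0263 in OB. Kcnj1, the renal channel, and Kcnj13 were at 2.31 ± 0.40 and 4.82 ± 0.64 in MOE and lower in VNO, at 0.509 ± 0.15 and 1.65 ± 0.21. Kcnj10 (Kir4.1), the astrocyte channel, ranged from 5.29 to 7.46 in OB and was at most 0.600 elsewhere, and the summed astrocyte and ensheathing glia markers were 249 (median) in OB, 83.0 in MOE and 56.8 in VNO. Of these, Aqp4 made up most of the sums in the epithelia and was lower in OB, with a mean of 31.0 there beside 68.0 (MOE) and 50.0 (VNO). Gfap was at 28.2 in OB and at 0.219 and 0.522 in MOE and VNO, and Slc1a3 at 94.0, 2.65 and 1.79. Their part in the Kcnj10 difference was not tested. Kcnj8, the pore of vascular KATP channels, was not called, at 0.388 ± 0.12, 0.861 ± 0.15 and 0.928 ± 0.24 in MOE, VNO and OB.

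Kcnma1, the BK pore opened by voltage and calcium, was not called in any comparison of tissues, with 10.1 ± 0.74 FPKM in VNO, 9.53 ± 0.81 in OB and 7.55 ± 0.64 in MOE. Its beta subunits were not level. Kcnmb3 ranged from 9.65 to 22.6 in MOE, from 0.740 to 2.38 in VNO and from 0 to 0.274 in OB, so MOE was above VNO by a log2 difference of 3.14 (SE 0.11, adjusted p = 8.70e-21). Kcnmb2 was at 9.84 ± 1.5, 5.90 ± 0.74 and 0.789 ± 0.13 in MOE, VNO and OB, and Kcnmb4, the neuronal form, at 2.66 ± 0.73, 1.21 ± 0.38 and 17.3 ± 2.5. Kcnmb1, known from smooth muscle, was between 0.698 and 1.14 in VNO and at most 0.274 elsewhere. Its mean over the 36 libraries was under the filter, so it had no test between tissues. Of the 6 smooth muscle and pericyte markers, 5 had their highest mean in VNO too, all but Rgs5. Their part in the Kcnmb1 level was not tested. Of the related list, Lrrc26, which shifts BK gating in gland cells, was at 8.01 ± 1.7 in MOE and 20.8 ± 3.7 in VNO and listed at 0 in all OB libraries.

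Small-conductance and intermediate channels are opened by calcium alone. Kcnn2 was at 7.19 ± 0.77 FPKM in OB, 4.53 ± 0.68 in MOE and 0.401 ± 0.11 in VNO. Kcnn4, the intermediate channel of secretory and blood cells, ranged from 1.31 to 3.64 in MOE, from 3.54 to 6.10 in VNO and from 0.415 to 1.27 in OB. MOE SF2 held its highest MOE value, the only one above the lowest VNO value.

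Background (leak) channels of the Kcnk family were led by Kcnk1 in every tissue, at 11.8 ± 1.5, 10.1 ± 1.2 and 17.4 ± 1.4 FPKM in MOE, VNO and OB, with no call. Kcnk3 (TASK-1) separated the epithelia, at 0.212 ± 0.056 in MOE and 2.30 ± 0.40 in VNO, with OB at 2.94 ± 0.27. Its relatives Kcnk9 and Kcnk15 were at 3.25 ± 0.51 and 4.57 ± 1.0 in OB. Kcnk9 was listed at 0 in all 24 libraries of the epithelia. Kcnk6 (TWIK-2) ranged from 1.13 to 1.84 in VNO and was at most 0.689 elsewhere. Kcne4, a small subunit that damps Kv pores, ranged from 3.08 to 4.82 in VNO, from 0.786 to 1.86 in MOE and from 0.429 to 0.755 in OB. Kcne3 was at 2.49 ± 0.49 in MOE and 3.41 ± 1.2 in VNO and at most 0.0821 in OB. Kcnrg, a cytosolic protein that hinders Kv assembly, was at 4.56 ± 0.87 in MOE, 6.97 ± 1.2 in VNO and 0.679 ± 0.13 in OB.

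**Figure D3:**
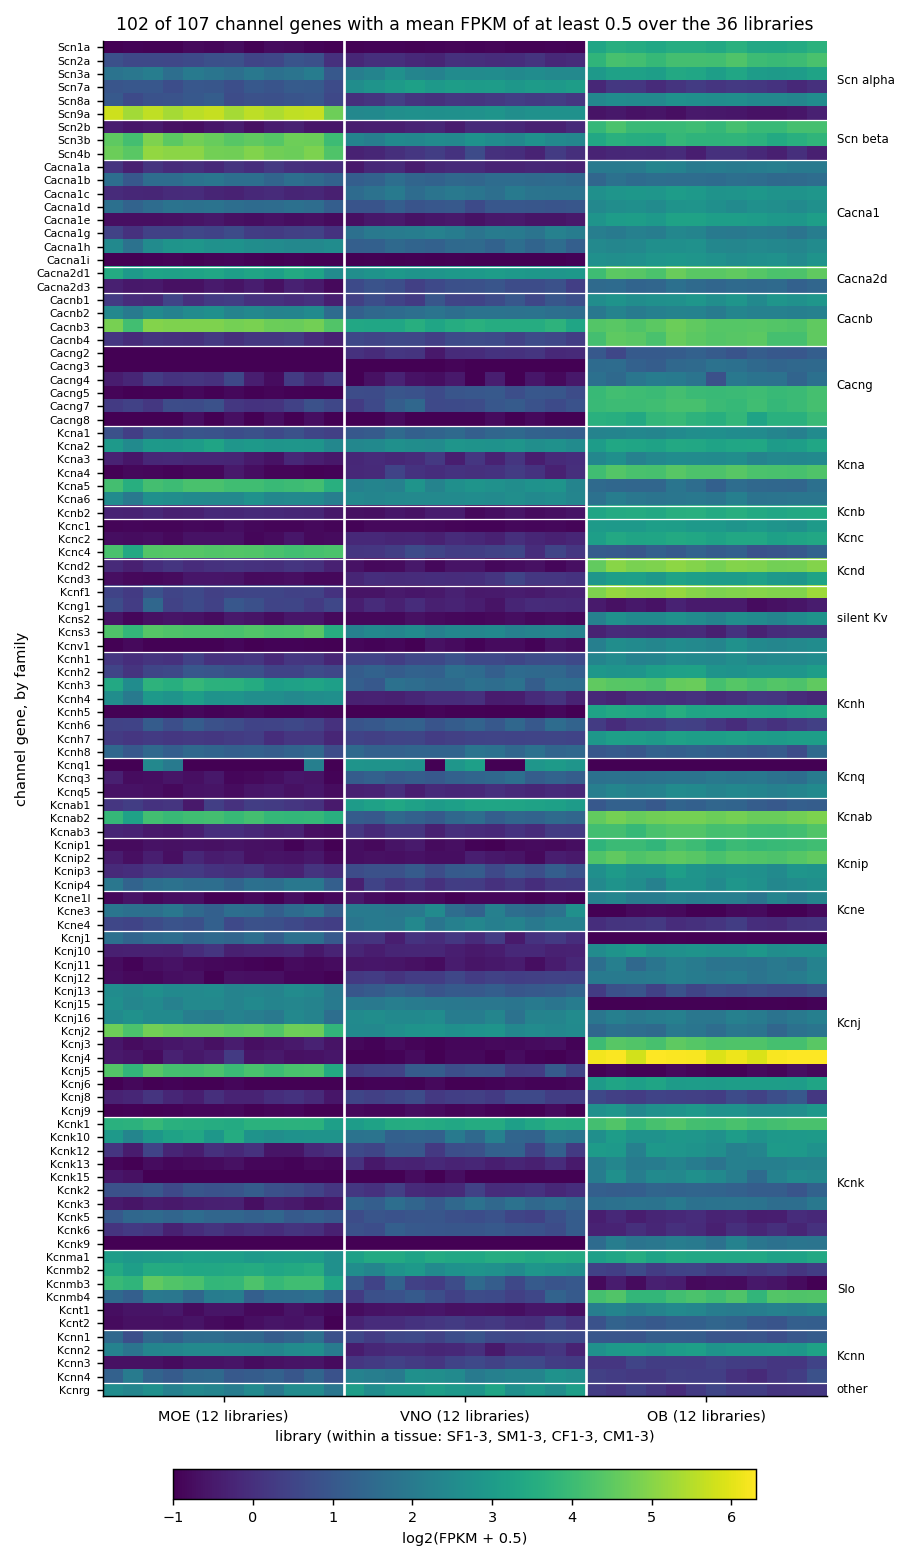
Log2(FPKM + 0.5) of 102 of the 107 members tested (rows, by family) in the 36 libraries (columns, by tissue and group), with brighter cells for higher values. Slo stands for Kcnma1 and the Kcnmb, Kcnt and Kcnu genes. The OB columns are the brightest for the 60 rows in which all OB libraries lie above those of both other tissues.

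Of a list of 37 other genes of membrane excitability, 32 were tested. In OB against MOE, 18 were called higher (56.2%, against 17.3% of all genes) and 6 lower (18.8%, against 21.1%). In OB against VNO these were 19 (59.4%, against 19%) and 8 (25%, against 20.2%), and in MOE against VNO 7 and 7 (21.9% each, against 11.8% and 9.73%). Nalcn, the sodium leak channel, and its partner Unc80 were at 13.7 ± 1.1 and 14.3 ± 1.5 FPKM in OB and at or below means of 0.652 in both epithelia. The genes lower in OB included the transduction channels Cnga2 (213 ± 36.9 in MOE) and Ano2 (70.1 ± 11.4 in MOE).

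Cell markers also differed between the tissues. The summed markers of olfactory sensory neurons had a median of 1542 FPKM in MOE, of 130 in VNO and of 45.9 in OB. Bulb neuron markers were at 70.2, 187 and 616 for these tissues, but the VNO sum was mostly Calb2, with a mean of 177 there and 144 in OB, and Gad2, Th, Slc17a7, Tbx21 and Eomes were each under 0.1 in VNO. Oligodendrocyte markers summed to 8.42, 8.16 and 262 in the same order, and sustentacular cell markers to 3554, 144 and 4.87. The range of each of these sums in OB lay outside those of both epithelia. Mog was at 0 in all MOE libraries. Skeletal muscle markers did not sum to more than 6.38 in any library. The part of cell makeup in the channel levels was not tested.

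Some members also differed between tissues in which transcript held most of the level. Of the 46 members with at least 2 accessions at a mean of 0.5 FPKM or more, 19 had different leading accessions in at least a pair of tissues, and 17 with transcripts under 0.5 left out. For Kcnab1 and Kcnip4 the leading transcript was the same in all 12 libraries of each tissue of such a pair. Shares of transcripts are estimates that the authors' program made from short reads. In VNO those of Scn8a switched between 0 and 100% from library to library. In MOE that of Cacnb2 NM_001252533 ran from 0 in CF1 to 100% in SF3 and CF2.

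Kcnip4 had a different leader in each tissue. NM_001199245 held 92.8% of its level on average in MOE and led in 12 of 12 libraries, and NM_001199243 held 93.3% in VNO and led in 12 of 12. In OB, NM_001199244 led in 7 of 12 libraries with 42.8%, beside 37.9% for NM_001199242. KChIP4 forms are known to differ at their amino end, which sets how they act on Kv4 pores. The starts of the coding sequences (GENCODE M21, GRCm38) are shown since the forms differ there. The first 60 coding bases of each are given 5′ to 3′, with capitals for bases before the stretch that they share to the stop codon.

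Kcnip4 NM_001199245, leading in MOE: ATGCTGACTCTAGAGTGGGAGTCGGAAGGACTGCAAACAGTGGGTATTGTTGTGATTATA
Kcnip4 NM_001199243, leading in VNO: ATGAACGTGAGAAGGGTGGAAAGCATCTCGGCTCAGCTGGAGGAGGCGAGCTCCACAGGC
Kcnip4 NM_001199244, leading in OB: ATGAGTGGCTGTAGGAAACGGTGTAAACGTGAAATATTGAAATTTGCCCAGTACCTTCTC

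The coding sequences of these 3 forms are 699, 648 and 675 bases long, and the own 5′ part is 110, 60 and 86 bases of them. The calcium channel beta subunits Cacnb2 and Cacnb3 differed in the same way. Cacnb2 was led by NM_001252533 in MOE (10 of 12 libraries, 59.5% on average), by NM_023116 in VNO (12 of 12, 88.2%) and by NM_001309519 in OB (9 of 12, 59.1%). Cacnb3 was led by NM_001044741 in MOE (12 of 12, 97.6%) and VNO (12 of 12, 80.4%) and by NM_007581 in OB (10 of 12, 58.4%). Their coding starts are shown in the same way.

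Cacnb2 NM_001252533, leading in MOE: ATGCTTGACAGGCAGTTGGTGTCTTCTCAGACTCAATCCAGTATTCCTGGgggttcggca
Cacnb2 NM_023116, leading in VNO: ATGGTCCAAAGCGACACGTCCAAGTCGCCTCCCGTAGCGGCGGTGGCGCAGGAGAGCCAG
Cacnb2 NM_001309519, leading in OB: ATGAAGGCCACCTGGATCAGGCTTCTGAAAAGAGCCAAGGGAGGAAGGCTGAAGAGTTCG
Cacnb3 NM_001044741, leading in MOE and VNO: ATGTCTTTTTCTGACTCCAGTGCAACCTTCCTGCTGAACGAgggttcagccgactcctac
Cacnb3 NM_007581, leading in OB: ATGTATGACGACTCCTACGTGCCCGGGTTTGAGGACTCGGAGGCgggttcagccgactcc

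Scn8a was led by NM_001077499 in MOE (11 of 12 libraries, 82.2%) and by NM_011323 in OB (12 of 12, 70.5%). Kcnab1 was led by NM_001289450 in VNO (12 of 12, 90.0%) and MOE (11 of 12, 75.4%) and by NM_010597 in OB (12 of 12, 100%). Kcnab2 was led by NM_001252656 in MOE (11 of 12, 66.8%) and NM_010598 in OB (12 of 12, 100%), but their coding sequences of 1101 bases are identical, so these transcripts differ outside the coding part.

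**Figure D4:**
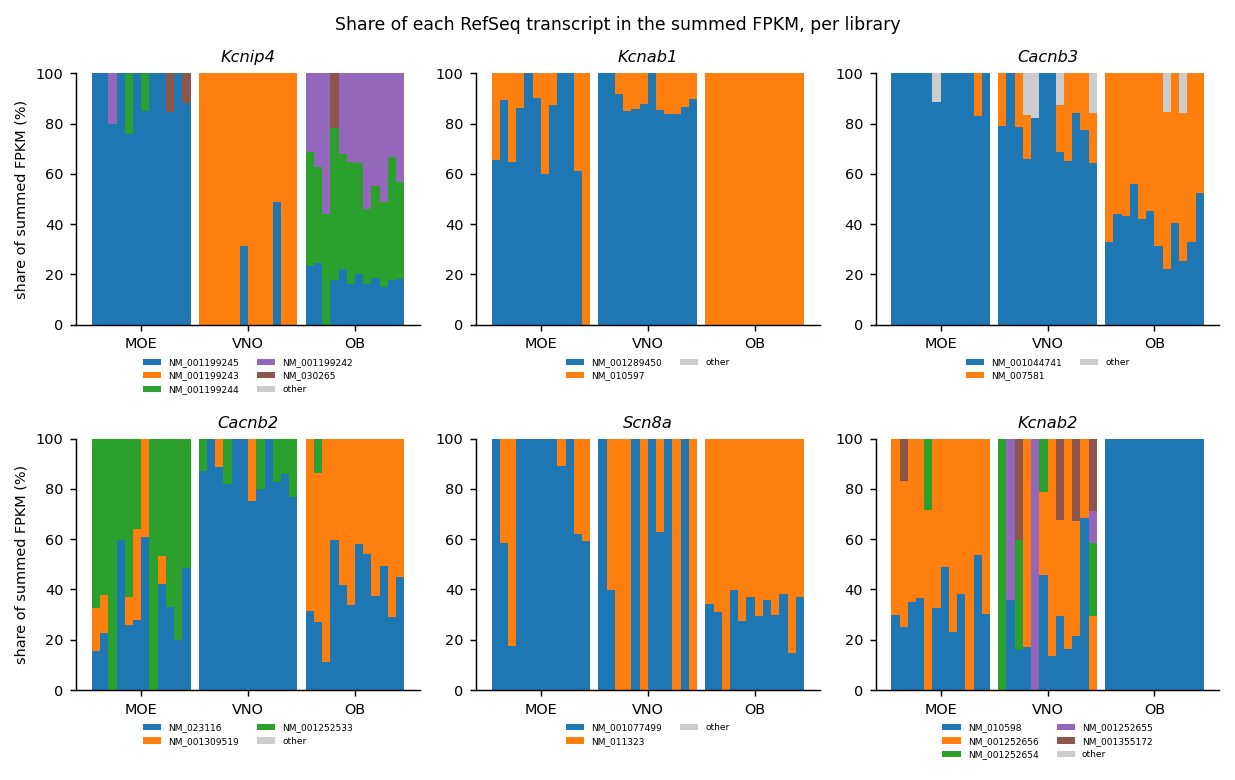
Share of the summed FPKM of Kcnip4, Kcnab1, Cacnb3, Cacnb2, Scn8a and Kcnab2 held by each transcript (percent, stacked bars from 0 to 100) in each of the 36 libraries, grouped by tissue. The leading colour of Kcnip4 changes at the tissue borders, with leaders holding 92.8% (MOE) and 93.3% (VNO), and also varies within OB. Kcnab1 has the same leading colour in VNO and in 11 of 12 MOE libraries, and a different colour in OB.

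Promoters of members with the strongest tissue differences are shown, because these genes move with tissue. They are the 250 bases before the start in RefSeq (GRCm38.p6), 5′ to 3′ on the gene's strand, with capitals for GC boxes (GGGCGG on either strand).

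Kcnj4, highest in OB (chr15:79505242-79505491, minus strand): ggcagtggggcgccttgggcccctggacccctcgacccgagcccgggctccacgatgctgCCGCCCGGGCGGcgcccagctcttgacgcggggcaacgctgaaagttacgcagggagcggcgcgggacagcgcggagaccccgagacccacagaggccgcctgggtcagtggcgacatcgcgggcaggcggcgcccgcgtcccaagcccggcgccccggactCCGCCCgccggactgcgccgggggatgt
Kcna4, highest in OB (chr2:107290339-107290588, plus strand): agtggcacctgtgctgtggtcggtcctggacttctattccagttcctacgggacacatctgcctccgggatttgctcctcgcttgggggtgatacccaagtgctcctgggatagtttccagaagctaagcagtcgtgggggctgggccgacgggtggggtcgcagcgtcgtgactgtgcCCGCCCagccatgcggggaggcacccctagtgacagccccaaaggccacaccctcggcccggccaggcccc
Scn9a, highest in MOE (chr2:66634963-66635212, minus strand): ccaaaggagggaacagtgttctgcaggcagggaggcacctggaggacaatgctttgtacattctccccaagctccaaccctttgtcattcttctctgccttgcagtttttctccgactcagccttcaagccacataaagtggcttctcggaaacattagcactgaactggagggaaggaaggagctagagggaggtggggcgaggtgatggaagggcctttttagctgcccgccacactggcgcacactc
Kcnj5, highest in MOE (chr9:32344345-32344594, minus strand): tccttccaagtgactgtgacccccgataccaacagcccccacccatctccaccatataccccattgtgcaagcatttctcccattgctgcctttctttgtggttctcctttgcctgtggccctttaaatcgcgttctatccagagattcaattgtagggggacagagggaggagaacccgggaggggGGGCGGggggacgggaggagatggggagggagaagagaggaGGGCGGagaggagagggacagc

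The Kcnj4 window held 3 GC boxes and 35 CpG, that of Kcna4 1 and 14, that of Scn9a 0 and 5, and that of Kcnj5 2 and 7. Of 135 promoter windows of 99 members, 42.2% held a GC box, against 32.7% of 32851 windows of all genes. The E-box CAGCTG was in 24.4%, against 13.0%, and TATAAA on either strand in 3.70%, against 12.4%. The cAMP response element TGACGTCA was in none, against 1.55% of all windows, and the EBF motif in none, against 0.779%. The median content of G and C was 58% in the windows of members and 52.4% in all windows, with medians of 8 and 6 CpG. The part of this composition in the motif shares was not tested. Windows of one gene can overlap, and a match is a description of letters only.

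Between sexes and housings, no member passed the test in any of the 15 comparisons (SF against SM, CF against CM, CF against SF, CM against SM and the difference of both sex differences, in each tissue; limma, adjusted p under 0.05). Members tested were 64 in MOE, 73 in VNO and 96 in OB. Of all genes, in the order just given, 0.0944, 0.0436, 0.0363, 0.0654 and 0.029% passed in MOE. For VNO the shares were 0.0721, 0.0433, 0, 0 and 0%, and for OB 0.039, 0.0468, 0.00781, 0 and 0.00781%. At an unadjusted p under 0.05 there were 5, 2, 1, 5 and 4 members in MOE, where 4.16, 1.76, 2.03, 6.93 and 4.59% of all genes stood. In VNO there were 8, 3, 13, 2 and 5, beside 8.79, 3.94, 11, 2.31 and 5.26%, and in OB 5, 4, 1, 8 and 3, beside 4.58, 5.69, 2.8, 3.4 and 4.12%. The highest count was that of CF against SF in VNO, with 11 of its 13 members higher in CF. It depended on single libraries: 7 members stood at this p without SF1 and 8 without SF2, beside 6.2% and 9.67% of all genes, and 18 without SF3, beside 16%. SF1 had the fewest fragments and the lowest summed channel FPKM (190) of the 12 VNO libraries, and was the lowest of them in 33 of 131 members detected. The RNA integrity numbers of the study were higher in every VNO SF sample than in every VNO CF sample. Housing and RNA integrity thus ran together in this comparison, and the part of RNA integrity was not tested. In OB, SF1 was the lowest library in 41 of 132 members. All 8 members of CM against SM in OB were lower in CM, 8.33% of the members beside 3.4% of all genes. That count also depended on single libraries: 1 member stood without CM2, beside 1.76% of all genes, and 16 without CM3, beside 7.37%. SF against SM and CM against SM share the SM libraries, as the other pairs share theirs, so these comparisons are not independent. The median SE of a member's log2 difference was 0.12 in OB, 0.13 in VNO and 0.19 in MOE, so small differences were not detectable at this number of pools.

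Kcnn4 in VNO had the smallest p of the members in both comparisons of sexes there. Its values were 4.20, 3.90 and 3.56 FPKM in SF, 5.89, 5.57 and 5.21 in SM, 3.54, 4.04 and 4.39 in CF, and 4.42, 6.10 and 5.64 in CM. No female library reached the level of a male one, with a narrow gap between 4.39 and 4.42. The log2 difference was -0.47 for SF against SM (SE 0.11, adjusted p = 0.316) and -0.38 for CF against CM (SE 0.11, adjusted p = 0.914). Over both housings, a comparison added after seeing the data, it was -0.42 (SE 0.08, adjusted p = 0.0837), so it did not pass, where 0.123% of all genes did. Such a gap between the sexes was found for 0.628% of all genes in VNO. The summed cartilage and bone markers also separated the sexes in VNO, at 109 to 152 FPKM in females and 81.0 to 101 in males, and their part in the Kcnn4 values was not tested. The gland markers overlapped, at 980 to 2842 in females and 1219 to 2388 in males.

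Cacng7 in MOE, a relative of the AMPA receptor regulators, was the other member for which the 6 libraries of each sex did not overlap in a tissue. It was at 0.683, 0.834 and 0.635 FPKM in SF and 0.637, 0.559 and 0.575 in CF, and at 1.12, 1.08 and 1.26 in SM and 0.843, 1.26 and 0.985 in CM. The difference over both housings was -0.46 (SE 0.11, adjusted p = 0.562), and 0.0726% of all genes passed in that comparison. Non-overlap of this kind was seen for 0.109% of all genes in MOE, and the sums of no marker list separated the sexes there. As few as 5 estimated fragments stood behind a value of Cacng7 in MOE, so counting error alone is wide.

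In OB, Kcnh2 had the smallest p for SF against SM. Its values were 6.75, 6.36 and 6.51 FPKM in SF, 8.15, 8.63 and 8.77 in SM, 6.42, 6.08 and 6.65 in CF, and 6.65, 6.72 and 7.97 in CM. SF lay below SM without overlap (log2 difference -0.36, SE 0.09, adjusted p = 0.911), and CF and CM overlapped. Kcnh2 was picked by its p among 96 members, and the share of all genes with such a gap between 2 groups of 3 was not counted. For housing, Cacnb2 in VNO had the smallest p, with 2.95, 2.93 and 2.86 in CF and 1.88, 2.28 and 2.44 in SF (log2 difference 0.34, SE 0.09, adjusted p = 0.369), and Kcna1 in OB stood at 5.49 ± 0.25 in CF and 4.46 ± 0.20 in SF (0.27, SE 0.10, adjusted p = 1). Kcnd3 in VNO was the member whose housings did not overlap, at 0.478 to 0.908 in the sex-combined and 0.354 to 0.473 in the sex-separated libraries (0.26 over both sexes, a comparison added after seeing the data, adjusted p = 0.629). Such a gap was found for 0.317% of all genes. For Cacnb2, the VNO groups SF and CF also differed in RNA integrity without overlap, and its part was not tested.

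**Figure D5:**
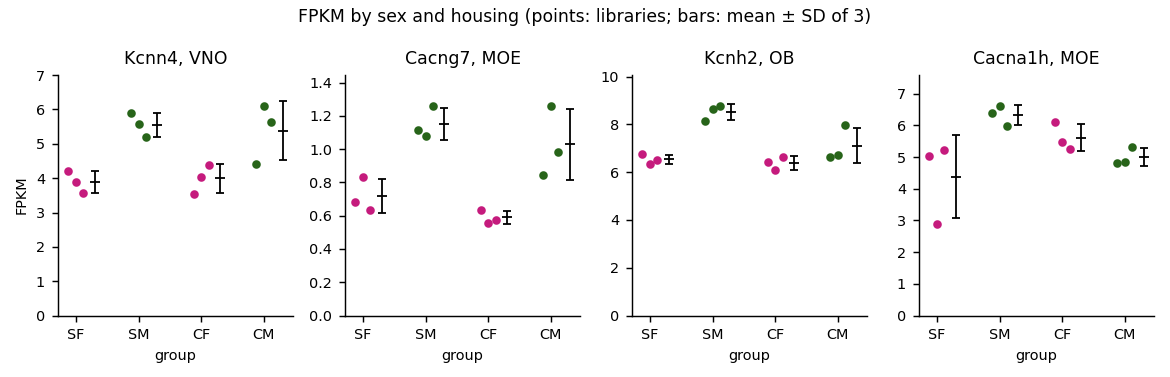
FPKM of Kcnn4 in VNO, Cacng7 in MOE, Kcnh2 in OB and Cacna1h in MOE in the 3 libraries of each of the groups SF, SM, CF and CM, with mean and SD. The female libraries of Kcnn4 lie at 3.54 to 4.39 and the male libraries at 4.42 to 6.10, and none of these members passed the test.

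The median coefficient of variation over the 12 libraries of a tissue was 10.6% for the members tested in OB, 15.8% in VNO and 18.5% in MOE, beside 11.5%, 11.6% and 17.1% for all genes. Kcnma1 was the steadiest member in MOE at 8.47%, Kcna6 in VNO at 6.79% and Cacng5 in OB at 5.35%.

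On the chromosomes, 58 members lay in 23 clusters with less than 1000000 bases between neighbours, and 13 of these clusters were of 1 family. Neighbours could lead the same tissue or different ones. Kcnmb2 and Kcnmb3 on chr3:31801625-32390891 were both highest in MOE, and so were Kcnj5 and Kcnj1 on chr9:32122368-32206779. Kcnj6 and Kcnj15, on chr16:94970290-95521865, were at 8.13 and 0.0117 FPKM in OB and at 0.0105 and 4.67 in MOE. Kcna3, Kcna2, Kcna10 and Kcnc4 of 2 families share chr3:106839080-107261816, where Kcnc4 was highest in MOE and Kcna3 in OB. Loci of 25 members overlap that of another gene, so their levels depend on how the study's program divided the reads.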

How the data were processed

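Total RNA was depleted of ribosomal RNA and sequenced as stranded paired ends. Per the submitters' processing notes and the study's methods, the authors aligned reads to mm9 with TopHat2 2.1.0 and estimated FPKM per RefSeq transcript with Cufflinks 2.2.1.0, 1 table per library, and these FPKM were deposited. FPKM of a gene's transcripts were summed (99.7% of entries matched a gene symbol through RefSeq or GENCODE). Log2(FPKM + 0.5) was fitted with limma 3.58.1 (R 4.3.3) with a mean-variance trend: 1 fit of 36 libraries for tissues, and 1 fit of 12 per tissue for groups, with genes at a mean of at least 0.5 FPKM. Fragments behind a value were estimated from its deposited confidence limits and cover counting error only. Replicates are pools, so p-values measure the spread between these samples. Scripts were tested on simulated data. Alternatives covered pseudocount, filter, scaling, size limit, left-out libraries and a replicate block. Replicate numbers, whose meaning the labels do not give, went with shared deviations for SF with SM and SF with CF in VNO, as correlations over genes show, and the block changed no call there. The members, lists and rules were chosen with earlier results of these data known. Named genes were, per tissue contrast and direction, the 5 largest called differences without overlap, the 8 highest members per tissue, the smallest p per group comparison, members whose leading transcript differed, and a list of well-known channels. Named beyond the rule, after their values were seen, were Cacng2, Cacng3, Cacng4, Cacng8, Kcna10, Kcna3, Kcna5, Kcna6, Kcnab3, Kcnb2, Kcnc2, Kcnd1, Kcng1, Kcnh5, Kcnip1, Kcnj1, Kcnj13, Kcnj6, Kcnj9, Kcnk15, Kcnk16, Kcnk6, Kcnk9, Kcnmb2, Kcnmb4, Kcnn2 and Scn2b. Python 3.11.15 made the tables and figures. Some members and a sequence are not reported here, though all members were counted.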

Additional observations from a re-analysis of the deposited data

Results flagged for a closer look

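In MOE, the Cacna1h libraries lay apart by housing in opposite directions in the sexes, but neither housing difference passed. The limma unadjusted p was 0.0743 in females and 0.115 in males. All tested members were searched for such a pattern in each tissue, and its share over all genes was not counted. Every CF library (6.10, 5.47 and 5.26 FPKM) lay above every SF library (5.04, 2.89 and 5.23), a log2 difference of 0.36, and every CM library (4.83, 4.84 and 5.33) lay below every SM library (6.40, 6.61 and 5.99), a log2 difference of -0.31. The difference between the sex differences was tested and was -0.67 (SE 0.27, limma adjusted p = 0.999), so it did not pass. Library SF2, which also stood apart in other members, decided its size: without it the housing difference in females was 0.11 and the interaction -0.43 (adjusted p = 1). With SF2 and CM3 both left out the interaction was -0.47 (adjusted p = 0.0577). By the study's alignment statistics, every MOE SF library had a higher share of aligned reads than every SM and every CF library. In MOE, CM1 and CM2 also lay above every SM library in this share, and CM3 lay below. The part of alignment in the Cacna1h values was not tested.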

How the results depend on the processing

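Tissue counts stayed within 1.5 times the reported ones under each alternative run, except 4. With no size limit, 44 members were higher and 43 lower in MOE against VNO, and 26 were lower in OB against VNO, since the limit on size alone was dropped. With a pseudocount of 0.1, 24 were lower in MOE against VNO, and the cause was not tested. Scaling moved all genes: the median in MOE against VNO went from 0.15 to -0.08 under upper quartile scaling and 0.01 under quantile normalization. In OB against VNO the median went from 0.12 to -0.10 under upper quartile scaling. The 5 largest called differences per tissue contrast and direction kept their direction and their call, and every group count stayed at 0, under each alternative and with each library left out. Members near the size limit, such as Kcnh3 and Cacna1d in OB against MOE, were not followed one by one.

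All 3 same-numbered pairs deviated together (a correlation above 0.1) only in VNO, for SF with SM (0.124 to 0.205) and for SF with CF (0.104 to 0.277). In the other 28 combinations of groups or tissues compared, at least 1 of the 3 pairs did not. With the replicate block, 64 members were higher and 18 lower in OB against MOE. They were 65 and 17 in OB against VNO, 19 and 13 in MOE against VNO, and 0 in the group comparisons. In VNO CF against SF, the members at an unadjusted p under 0.05 went from 13 to 11. The OB counts at this p moved more, from 5, 4, 1, 8 and 3 to 13, 5, 4, 10 and 8 (order of comparisons as above). Of all genes in OB, 6.96, 9.81, 5.05, 5.36 and 6.96% then stood at this p.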

Other observations

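The non-coding RNAs left out of the gene set had low levels. Kcnq1ot1, the imprinted antisense RNA of the Kcnq1 locus, had a mean of 1.81 ± 0.17 FPKM in VNO, 1.22 ± 0.11 in OB and 1.02 ± 0.15 in MOE (SD, n = 12). Kcnmb4os1 was listed at 0 in all 36 libraries, and Kcnd3os at 0 in all VNO and OB libraries and in 10 of 12 MOE libraries. Kcnmb4os2 was listed at 0 in 7 MOE, 6 VNO and 10 OB libraries.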
